A study of Rattus norvegicus with 32 samples.

Results

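The 39 genes described here encode the thick and thin filaments of the sarcomere, titin and the M-band, the Z-disc with desmin and its partners, and proteins of the response of muscle to stretch. They were chosen by name: every non-control probe that either annotation version of the scanner files assigned to one of these genes was taken, which gave 64 of the 45598 probes and 39 of the 34912 gene names on the array. The names were chosen with earlier results of these data known. Shares of members called, given beside those of all probes, are therefore descriptions and not a test of this class of genes. Myocardial transcripts were measured in the left ventricle of young adult Wistar rats of both sexes, 20 h after sham surgery or after cecal ligation and puncture (CLP), a model of abdominal sepsis. The groups were sham (5 males and 5 females), CLP (5 males and 5 females) and CLP plus landiolol (6 males and 6 females), where landiolol, a short-acting blocker of the beta1-adrenergic receptor, was infused from soon after CLP and the other rats received the same volume of saline. All rats were given buprenorphine and no antibiotics, all hearts underwent imaging and then perfusion outside the body before they were frozen, and RNA samples were kept only where their integrity was high, with 1 array per rat. Questions put to these genes were whether CLP altered their transcripts and whether landiolol altered them in septic rats.

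In the sarcomere, myosin of the thick filament pulls on actin of the thin filament, and troponin and tropomyosin make this pull depend on calcium. Z-discs anchor the thin filaments and pass force from one sarcomere to the next, while the giant spring titin spans from the Z-disc to the M-band. Several Z-disc and titin-bound proteins, among them muscle LIM protein (Csrp3) and the muscle ankyrin repeat proteins (Ankrd1, Ankrd2 and Ankrd23), are known to rise when muscle is stretched or overloaded and can move to the nucleus.

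Values are log2 of the array intensity after quantile normalisation within a sex, where a difference of 1 is a doubling. Each gene was reported by its brightest probe. On 38 of 39 genes this probe was well above background on all 32 arrays, and for Ankrd2 it was so on all arrays but 2 of the 5 female sham arrays. Levels of different genes are not set against each other, since probes bind with different strength. Groups were compared with limma at a false discovery rate (FDR) of 1% where sham was the reference and of 5% where untreated CLP was, with p-values adjusted over all 25866 probes kept in males and 25395 in females. In whole tissue, fewer cells of a type and less RNA per cell cannot be told apart.

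Probes are shown for the genes with the largest changes and for the myosin heavy chains, because a signal of one paralog is only as specific as its probe. Coordinates are those of the array annotation on build rn4 and all probes had 60 bases. Myotilin (Myot), a Z-disc protein that binds alpha-actinin and filamin, had 3 probes. The first of them below was the reported probe.
Myot, chr18:38023027-38023086, plus strand: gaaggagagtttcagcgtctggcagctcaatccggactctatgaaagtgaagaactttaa
Myot, second of the probes shown, chr18:38017869-38017928, plus strand: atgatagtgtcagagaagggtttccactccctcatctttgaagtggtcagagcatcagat
Ankrd2, chr1:248807215-248807926, minus strand in the annotation: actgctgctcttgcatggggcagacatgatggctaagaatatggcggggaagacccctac
Mybpc2, chr1:94982555-94982699, minus strand: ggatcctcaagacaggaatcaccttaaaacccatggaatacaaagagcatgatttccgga
Myh7b, chr3:146138435-146138494, plus strand: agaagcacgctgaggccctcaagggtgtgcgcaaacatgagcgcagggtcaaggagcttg
Myh7, chr15:33073880-33073939, minus strand: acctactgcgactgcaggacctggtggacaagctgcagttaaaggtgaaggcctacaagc
Myh6, chr15:33044576-33044983, minus strand: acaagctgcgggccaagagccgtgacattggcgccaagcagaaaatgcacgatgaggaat
Aligned end to end, the Myh6 and Myh7 probes had the same base at 22 of 60 positions, the Myh7 and Myh7b probes at 11 and the Myh6 and Myh7b probes at 21. The Mybpc2 probe shared 15 of 60 positions with that of Mybpc3, its cardiac paralog, and the Ankrd2 probe shared 12 with that of Ankrd23. These counts set probe against probe. The match of a probe to the transcript of its paralog was not checked, so they do not show how specific a signal is. The Ankrd2 probe spans 712 bases of the genome and the Mybpc2 probe 145, so both cross an intron.

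CLP raised a small set of these genes in both sexes and lowered 1 in males. In males, 4 of 39 members were up-regulated (Myot, Ankrd2, Xirp1 and Pdlim5), where 3.88% of all probes tested were higher at this FDR, and 1 (Myh7b) was down-regulated, where 3.94% of probes were lower. In females, 5 of 39 were up-regulated (Myot, Ankrd2, Ankrd23, Mybpc2 and Pdlim5) and 0 down-regulated, where 1.82% of probes were higher and 1.82% lower. Ankrd2 is counted in females although only 3 of 5 female sham arrays were well above background. It entered the female test through the septic groups, where it is high. The called members lay in the Z-disc (2 of 9 in each sex), the stretch response (2 of 6 in each sex) and the thick filament (1 of 10 in each sex), and no member of the thin filament (11 genes) or of titin and the M-band (3 genes) passed. The median difference over the 39 members was -0.11 in males and 0.04 in females, beside 0.01 and -0.01 over all probes tested. For the 6 stretch-response genes the median was 0.94 in males and 0.998 in females. These counts fell when certain single arrays were left out, which also makes a group smaller. In males only Myot and Myh7b passed without sham replicate 1 or 3 or CLP replicate 3 or 4. In females Myot, Mybpc2 and Ankrd23 passed without sham replicate 1, 3 or 5 or CLP replicate 4.

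**Figure D1:**
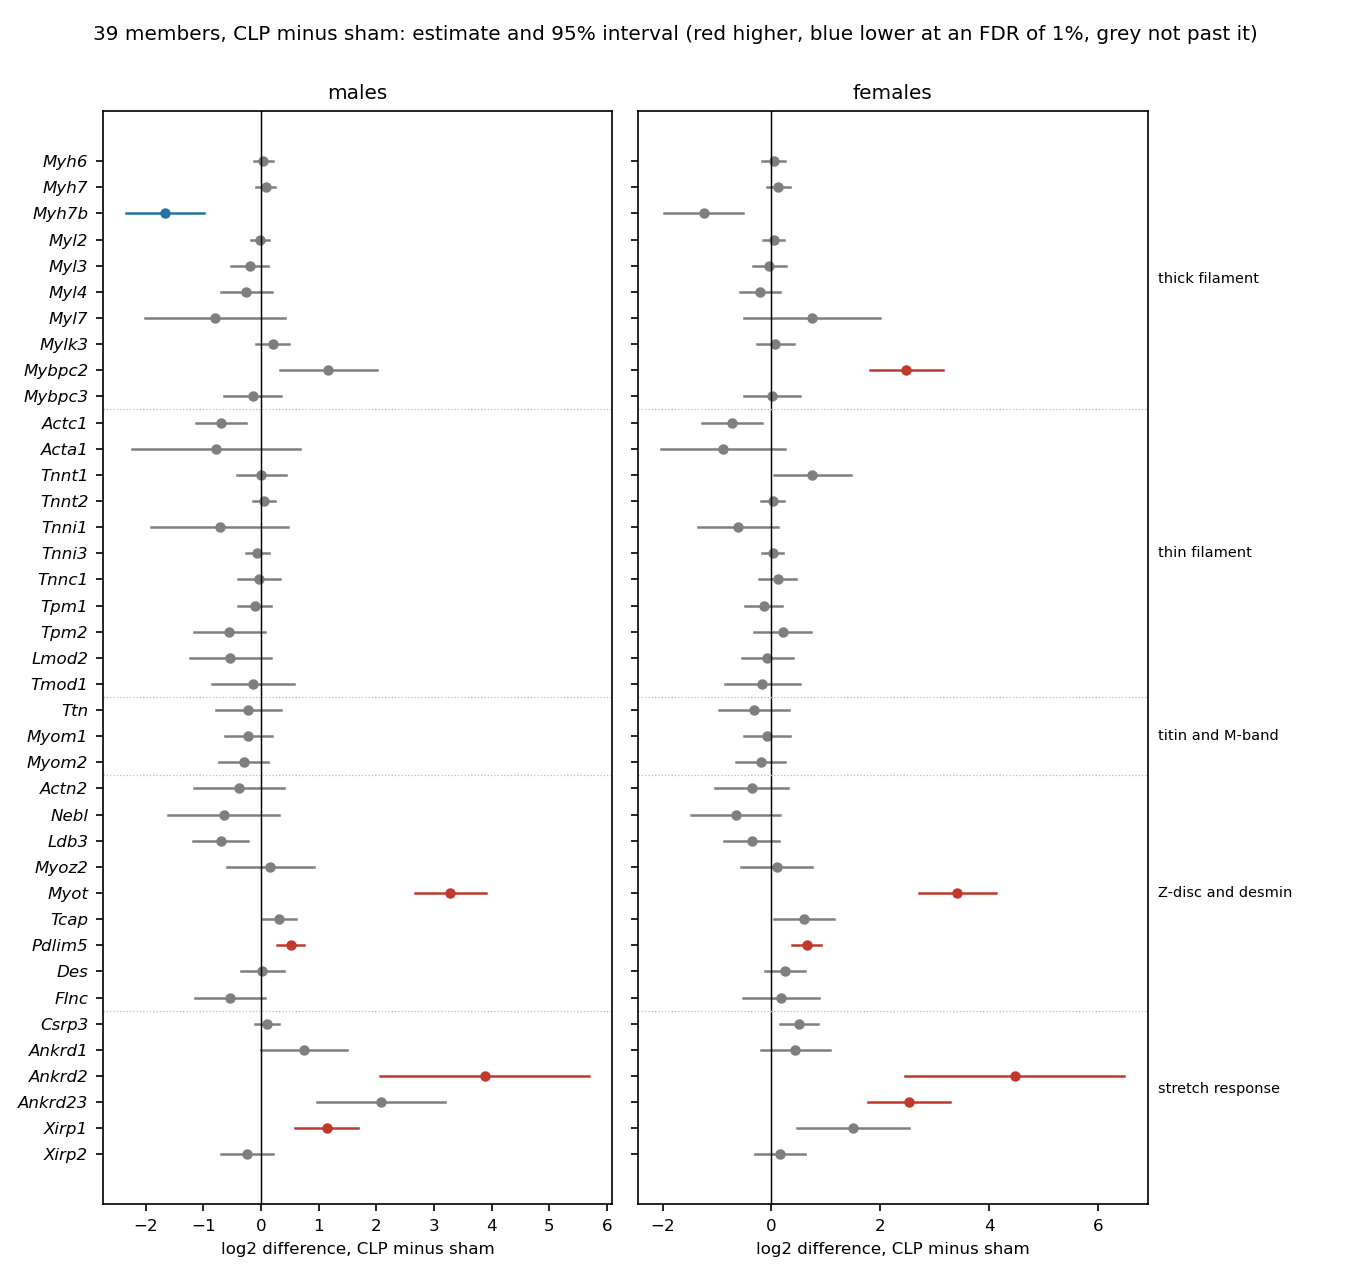
Difference between the CLP and sham groups for the 39 members (horizontal axis, log2 difference, CLP minus sham; point, estimate; line, 95% interval; left, males; right, females), ordered by place in the sarcomere. Myot and Ankrd2 lie furthest to the right in both sexes, Myh7b furthest to the left, and most other members lie near 0.

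Myot had the smallest p-value of the members in both sexes. In male sham rats its values were 9.68, 9.09, 8.76, 8.66 and 8.28, and in male CLP rats 12.03, 12.14, 12.97, 11.88 and 11.86. Every CLP value lay above every sham value. The rise was 3.28 ± 0.29 on the log2 scale (SE, n = 5 and 5), a 9.73-fold change, with an adjusted p of 4.8e-06. Female sham rats had 8.20, 9.34, 7.90, 9.02 and 8.62, and female CLP rats had 11.82, 12.26, 12.13, 12.55 and 11.40. The groups were again apart, with a rise of 3.41 ± 0.33 (10.7-fold, adjusted p = 3.1e-05). The other probes of Myot rose as well, by 3.37 and 3.09 in males and by 3.45 and 3.27 in females. Within the pair of slides used for each sex, the rise was 2.99 and 3.31 in males and 4.16 and 2.60 in females.

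Ankrd2 encodes a muscle ankyrin repeat protein of the titin spring region that is best known from slow skeletal muscle. In male sham rats it was at 5.68, 6.25, 5.85, 5.73 and 6.89, and in male CLP rats at 7.24, 10.91, 11.32, 11.25 and 9.06. All 5 CLP values lay above all sham values, but 1 CLP rat was close to them. The rise was 3.88 ± 0.85 (14.7-fold, 95% interval 2.06 to 5.69, adjusted p = 0.0057). In females the sham values were 4.75, 3.80, 5.14, 4.26 and 4.57 and the CLP values 7.05, 8.29, 9.36, 8.03 and 12.11. The rise was 4.47 ± 0.95 (adjusted p = 0.0076). Only 3 of 5 female sham arrays were well above background, so in females Ankrd2 passed the filter through the septic groups, where it is high, and no fold is given against a reference partly at background. Of all members it had the widest spread between the rats of a septic group. Its call was lost in 8 of 29 alternative settings in males and 17 of 29 in females, and over these settings the difference ran from 2.97 to 4.57 in male rats and from 2.66 to 4.94 in female rats.

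Ankrd23, a relative of Ankrd2 at the same place on titin, had values of 7.44, 8.00, 7.97, 8.44 and 8.67 in female sham rats and of 10.82, 10.51, 11.17, 10.04 and 10.61 in female CLP rats. The groups did not overlap and the rise was 2.53 ± 0.36 (5.77-fold, adjusted p = 0.00047). In males, sham values were 8.00, 9.74, 8.77, 8.81 and 8.52 and CLP values 9.08, 10.60, 12.20, 10.98 and 11.38. One CLP rat lay below the highest sham rat, and the male difference of 2.08 ± 0.53 missed the FDR of 1% (adjusted p = 0.013). Ankrd1, the best studied of these ankyrin repeat proteins in the heart, differed by 0.75 ± 0.35 in males (adjusted p = 0.17) and by 0.44 ± 0.30 in females (adjusted p = 0.42).

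Xirp1 encodes an actin-binding protein of the intercalated disc and of muscle under repair. Its values were 10.60, 11.86, 11.27, 11.86 and 11.43 in male sham rats and 12.24, 12.20, 12.39, 13.19 and 12.67 in male CLP rats, with no overlap. The rise was 1.13 ± 0.26 (2.20-fold, adjusted p = 0.0074). Female values ran from 10.04 to 12.91 in sham and from 12.44 to 14.37 in CLP, and this difference of 1.49 ± 0.49 did not pass (adjusted p = 0.069). Csrp3 differed by 0.10 ± 0.10 in males (adjusted p = 0.54) and by 0.50 ± 0.17 in females (adjusted p = 0.073), and Xirp2, a relative of Xirp1, passed in neither sex.

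Pdlim5, a scaffold that ties protein kinases to alpha-actinin at the Z-disc, changed little but with a small spread. Sham males had 15.58, 16.05, 15.82, 16.06 and 15.72, and CLP males had 16.45, 16.29, 16.40, 16.31 and 16.35. In females the sham values were 15.45, 15.88, 15.40, 15.86 and 15.50 and the CLP values 16.22, 16.34, 16.24, 16.38 and 16.15. No CLP rat of either sex lay within the sham range. The rise was 0.51 ± 0.11 in males (1.43-fold, adjusted p = 0.0052) and 0.65 ± 0.12 in females (1.57-fold, adjusted p = 0.0038), and the female call was lost after scaling to the 75th percentile (adjusted p = 0.015). A dimmer probe of Pdlim5 rose by 1.10 in males (adjusted p = 0.0027) and differed by 0.77 in females (adjusted p = 0.019). The third probe passed in neither sex, with differences of 0.49 and 0.48.

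Mybpc2, the fast skeletal form of myosin-binding protein C, was at 5.97, 6.96, 5.57, 7.03 and 6.88 in female sham rats and at 8.97, 9.19, 9.06, 8.22 and 9.33 in female CLP rats. All CLP values lay above all sham values, and the rise was 2.47 ± 0.32 (5.54-fold, adjusted p = 0.00023). Male sham values were 7.77, 7.39, 6.76, 7.41 and 6.14 and male CLP values 7.41, 8.30, 8.23, 9.42 and 7.94. In males the groups overlapped and the difference of 1.16 ± 0.40 did not pass (adjusted p = 0.058). Mybpc3, the cardiac form, passed in neither sex.

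Myh7b, a slow-type myosin heavy chain whose gene also carries a microRNA, was the member that fell. Male sham rats had 12.56, 12.45, 11.83, 11.76 and 13.06 and male CLP rats 11.64, 10.76, 10.32, 10.47 and 10.15. The groups did not overlap, although the highest CLP value was close to the lowest sham value. The transcript fell by 1.67 on the log2 scale (SE 0.32, 3.17-fold, adjusted p = 0.0022). In females, values ran from 10.67 to 12.89 in sham and from 10.05 to 11.43 in CLP, and the difference of -1.25 ± 0.34 did not pass (adjusted p = 0.031). It was -1.94 on one female slide and -0.55 on the other.

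**Figure D2:**
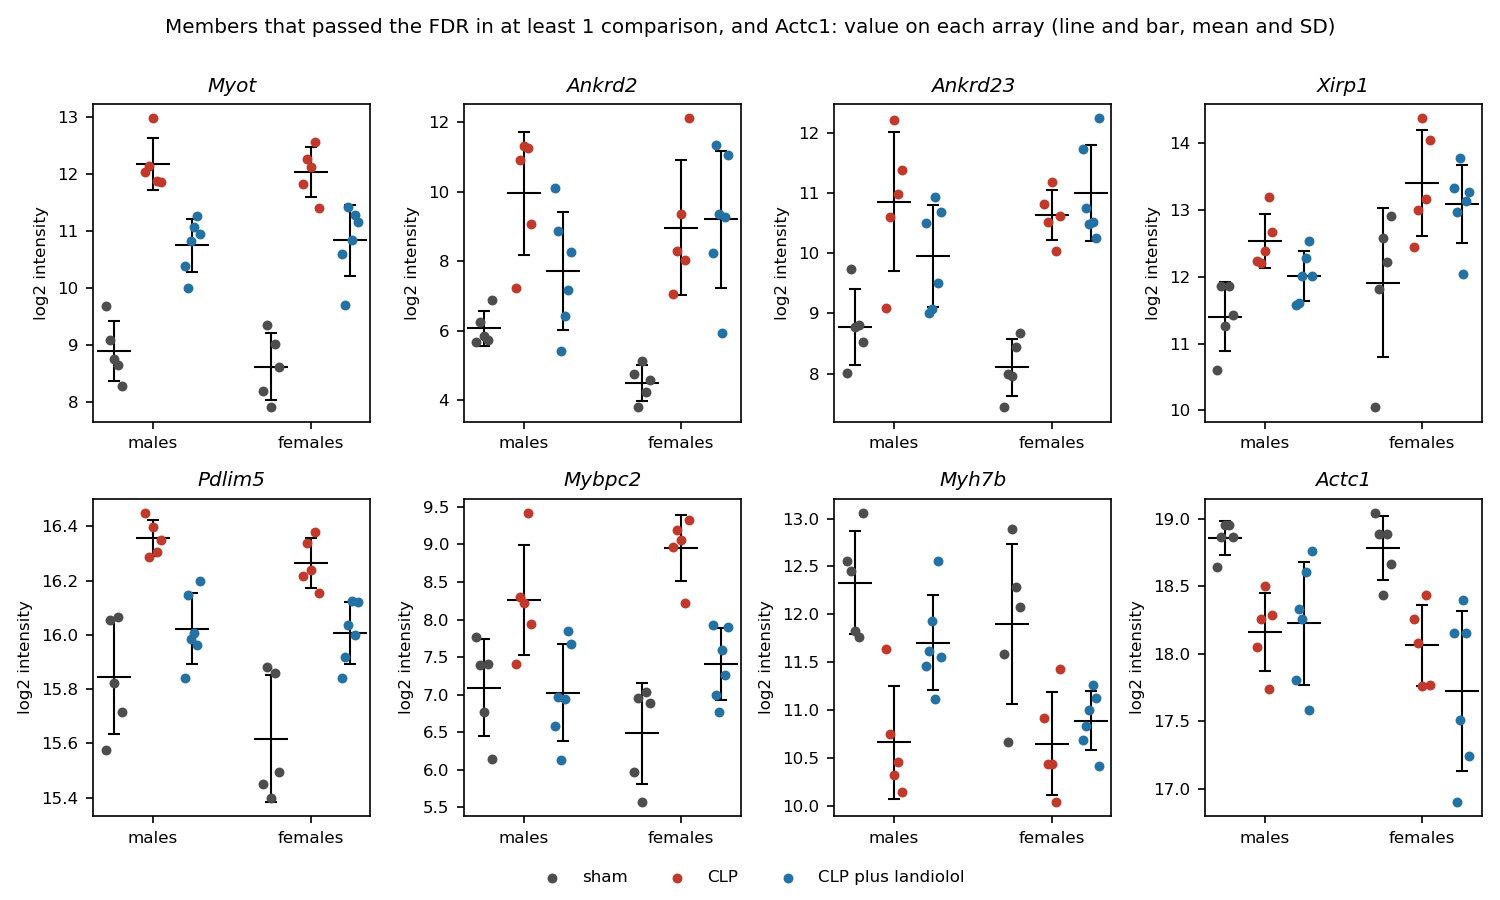
Log2 intensity (vertical axis) on each array for the 7 members that passed the FDR in at least 1 comparison and for Actc1, by sex and group (points, arrays; line and bar, mean and SD). Myot is higher in all CLP rats than in all sham rats of the same sex, with the landiolol group between them in males, and Ankrd2 has the widest spread among treated rats.

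The other 32 members passed in none of the 6 comparisons. Their CLP vs sham differences ran from -0.81 to 0.75 in males and from -0.88 to 0.75 in females, and 22 of them in males and 24 in females lay within 0.5 of 0. Cardiac alpha-actin (Actc1) came closest to passing among the thin filament genes. Its values were 18.64, 18.87, 18.95, 18.95 and 18.87 in male sham rats and 18.05, 18.26, 18.50, 17.74 and 18.29 in male CLP rats, with no overlap. The difference was -0.69 ± 0.20 (adjusted p = 0.031), and it was -0.80 with an adjusted p of 0.0067 when arrays were scaled to their 75th percentile, which passes the FDR of 1%. In females it was -0.72 ± 0.26 (adjusted p = 0.095). Acta1, the skeletal alpha-actin, differed by -0.78 ± 0.69 in males (adjusted p = 0.52) and by -0.88 ± 0.54 in females (adjusted p = 0.36), so its intervals were wide.

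Differences of the main cardiac isoforms were small on this scale. Myh6, the alpha myosin heavy chain that dominates in the rat ventricle, differed between CLP and sham by 0.04 in males (95% interval -0.13 to 0.20) and by 0.04 in females (-0.16 to 0.25). Myh7, the beta heavy chain, differed by 0.08 (-0.09 to 0.25) and 0.13 (-0.09 to 0.34). Cardiac troponin T (Tnnt2) differed by 0.05 in males and 0.02 in females, and cardiac troponin I (Tnni3) by -0.07 and 0.02, each with an adjusted p of at least 0.71. Titin (Ttn) differed by -0.22 in males (-0.78 to 0.34) and by -0.32 in females (-0.96 to 0.31). Nebulette (Nebl), a nebulin-like protein of the cardiac Z-disc, differed by -0.65 in males and -0.66 in females (adjusted p = 0.39 and 0.34), while another of its probes went the other way, by 0.27 and 0.65. The Z-disc PDZ and LIM protein Ldb3 differed by -0.70 in males (adjusted p = 0.045).

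The remaining members are described by role. In the thick filament, Myl2, Myl3, Myl4 and Myl7 are the ventricular and atrial light chains and Mylk3 is the kinase of the ventricular regulatory light chain. Among the 8 uncalled thick filament genes, CLP vs sham differences ran from -0.81 (Myl7) to 0.20 (Mylk3) in males and from -0.21 (Myl4) to 0.74 (Myl7) in females, and the smallest adjusted p was 0.38 in males and 0.50 in females. Myl7, an atrial chain, thus had opposite signs in the sexes without passing in either. The 11 thin filament genes, which hold the slow troponins Tnnt1 and Tnni1, cardiac troponin C (Tnnc1), the tropomyosins Tpm1 and Tpm2, and the filament end proteins Lmod2 and Tmod1, ran from -0.78 (Acta1) to 0.05 (Tnnt2) in males and from -0.88 (Acta1) to 0.75 (Tnnt1) in females. A dimmer probe of Tpm2 differed by 1.65 in females (adjusted p = 0.098), against 0.21 for the reported one. The 7 uncalled Z-disc genes, among them alpha-actinin-2 (Actn2), calsarcin-1 (Myoz2), telethonin (Tcap), desmin (Des) and filamin C (Flnc), ran from -0.70 (Ldb3) to 0.31 (Tcap) in males and from -0.66 (Nebl) to 0.59 (Tcap) in females. Ttn and the myomesins of the M-band, Myom1 and Myom2, ran from -0.30 to -0.22 in male rats and from -0.32 to -0.08 in female rats, and none of the 3 passed. For the same 32 genes, CLP plus landiolol vs CLP differences ran from -0.56 (Acta1) to 0.85 (Nebl) in males and from -1.03 (Myl7) to 0.49 (Myom2) in females, with 28 and 30 of them within 0.5 of 0.

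For the brightest members the scaling itself limits what can be read. Over the 32 arrays, 12 members had a median rank of 100 or better among the 45598 probes, with Myh6 at rank 2, and quantile normalisation gives probes at the top of the range nearly the same value on every array. When arrays were scaled to the 75th percentile instead, the sign of the CLP vs sham difference turned for 3 of these 12 in males and 5 in females. Myh6 then differed by -0.05 in males and -0.07 in females. The median of the 12 in CLP plus landiolol vs CLP males was 0.02 after quantile normalisation and 0.18 after scaling to the 75th percentile. Actc1 and Csrp3, both among the 12, kept their sign under both scalings in all 6 comparisons.

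**Figure D3:**
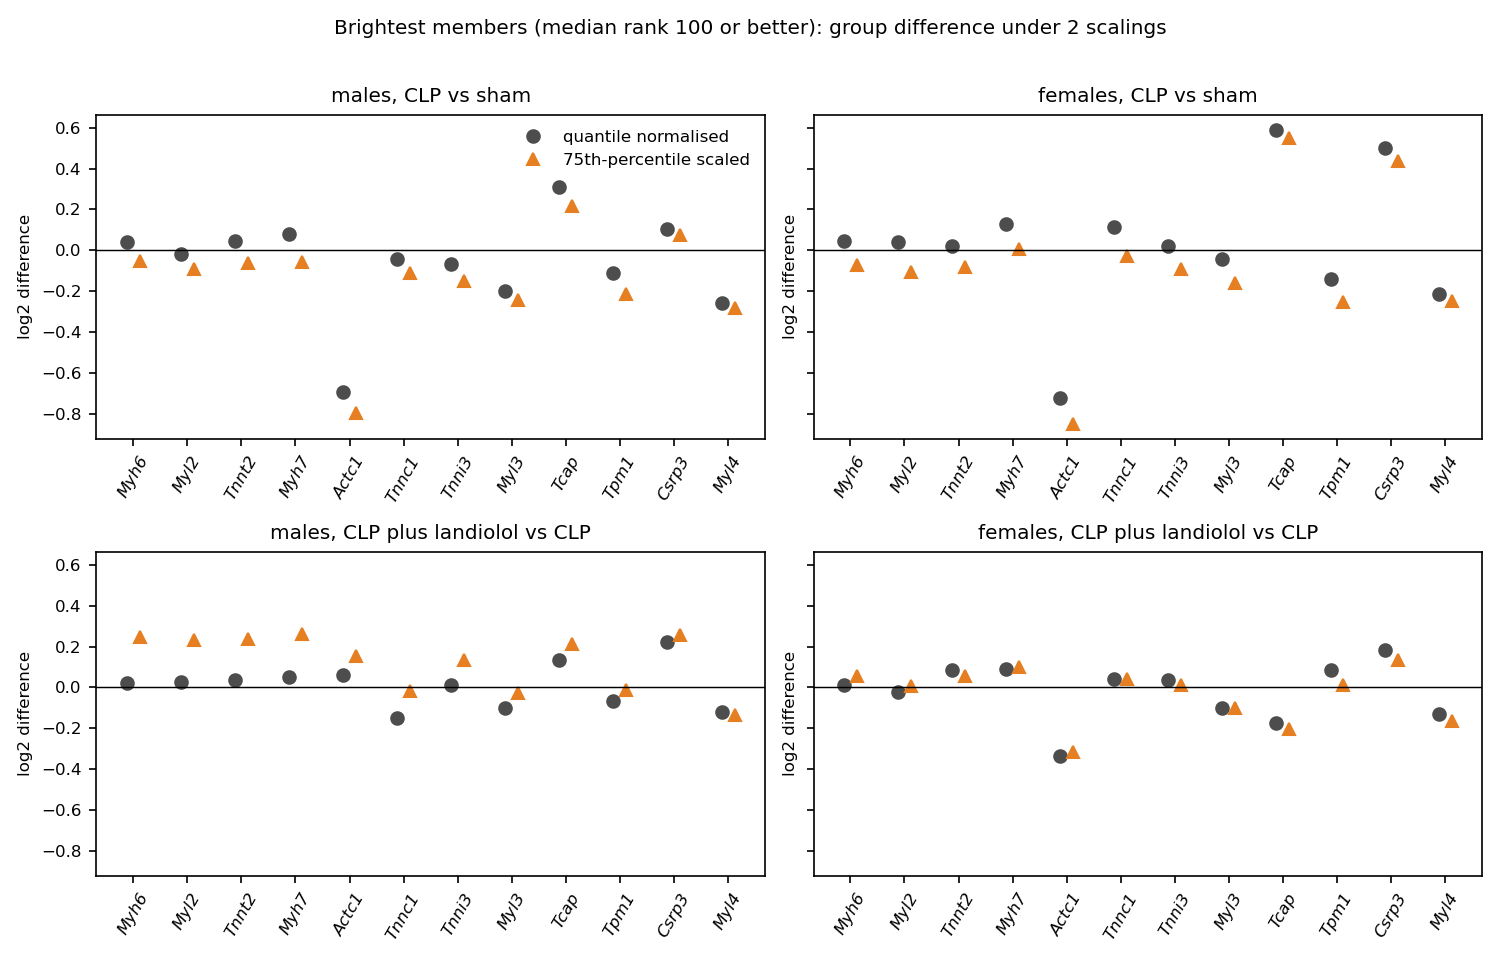
Group difference (vertical axis, log2) of the 12 brightest members after quantile normalisation (circles) and after scaling to the 75th percentile (triangles), by sex and comparison. Actc1 lies well below 0 in CLP vs sham under both scalings, while Myh6 and Tnnt2 lie on either side of 0.

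Pairs of isoforms were also compared within each array, as the difference between their log2 values, in 30 exact two-sided permutation tests (5 pairs, 3 comparisons, 2 sexes). The pairs were Myh7 and Myh6, Acta1 and Actc1, Tnni1 and Tnni3, Myl4 and Myl3, and Myl7 and Myl2, in each of which the first is the fetal, atrial or skeletal form. After Benjamini-Hochberg adjustment 0 of 30 passed an FDR of 5%, and the smallest adjusted p was 0.24. It belonged to the shift of Myl4 relative to Myl3 in CLP vs sham females, -0.17, for which the permutation p of 0.0079 is the smallest that 5 against 5 arrays can give. Myh7 relative to Myh6 shifted by 0.04 in males and 0.08 in females between sham and CLP (exact permutation p = 0.11 and 0.17), and the male shift turned to -0.0057 after scaling to the 75th percentile and to -0.020 after normexp background correction. Between sham and CLP plus landiolol it shifted by 0.07 in males and 0.16 in females (exact permutation p = 0.043 and 0.041, adjusted p = 0.32 for both). The male value was 0.0058 after scaling to the 75th percentile and -0.0030 after normexp (exact permutation p = 0.96 and 0.98), and the female value 0.12 and 0.23 (exact permutation p = 0.063 and 0.0043, adjusted p = 0.82 and 0.11).

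In septic rats, landiolol was accompanied by a change of 1 member in males and of 0 in females by limma, and of 3 and 1 by SAM, the test named in the study. By limma, CLP plus landiolol vs CLP gave 0 of 39 members higher and 1 lower (Myot) in males, where 0.804% of probes were higher and 0.758% lower at an FDR of 5%. In females 0 of 39 members were higher and 0 lower by limma, where 0.0512% of probes were higher and 0.0433% lower. An unadjusted limma p under 0.05 was found for 9 members in males and 5 in females. The share of all probes under 0.05 was not counted, so these counts have no reference. SAM called Myot and Pdlim5 lower and Myh7b higher in males and Mybpc2 lower in females. The share of all probes that SAM called was not counted, so its member counts have no such reference. The CLP arrays enter this comparison as well as CLP vs sham, so an extreme CLP group moves both differences, in opposite directions. The median over the members was 0.02 in males and 0.06 in females, beside -0.01 and 0.03 over all probes.

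Myot ran from 10.01 to 11.26 with a median of 10.88 in male CLP plus landiolol rats, below all 5 CLP males and above all 5 sham males. The fall from CLP was 1.43 on the log2 scale (SE 0.28, 2.69-fold, adjusted p = 0.018). Against sham the same rats remained higher by 1.85 ± 0.28 (3.61-fold, adjusted p = 0.00060). All 3 probes fell in CLP plus landiolol vs CLP males, the others by 1.61 and 1.24. The call against CLP was lost without CLP replicate 3, whose value of 12.97 was the highest of its group, and the difference was then -1.23. Female values ran from 9.70 to 11.42 with a median of 10.998, and the highest of them lay just above the lowest CLP value. The female difference of -1.20 ± 0.32 did not pass (adjusted p = 0.18), and the test of the difference between the sexes gave an adjusted p of 0.98.

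Other members with a CLP difference varied in where the landiolol group lay, and their reported probes did not pass the FDR by limma. Pdlim5 ran from 15.84 to 16.20 in males and from 15.84 to 16.13 in females, below every CLP value of the same sex. The differences from CLP were -0.33 ± 0.11 (adjusted p = 0.14) and -0.26 ± 0.12 (adjusted p = 0.52). The dimmer probe of Pdlim5 fell in males, by 0.98 (adjusted p = 0.028). Mybpc2 ran from 6.77 to 7.93 in females, below every CLP female, with a difference of -1.54 ± 0.30 and an adjusted p of 0.070. In males the Mybpc2 groups overlapped and the difference was -1.23 ± 0.38 (adjusted p = 0.13). Myh7b ran from 11.12 to 12.56 with a median of 11.58 in males and differed from CLP by 1.04 ± 0.30 (adjusted p = 0.11), and in females the difference was 0.23 ± 0.33 (adjusted p = 0.89).

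For the ankyrin repeat genes the estimates differed in sign between the sexes. Ankrd2 ran from 5.43 to 10.11 with a median of 7.72 in CLP plus landiolol males, a difference from CLP of -2.24 ± 0.82 (adjusted p = 0.21), and from 5.95 to 11.35 with a median of 9.32 in females, a difference of 0.24. Ankrd23 differed by -0.90 in males and 0.36 in females. Treated and untreated septic rats overlapped for both genes in both sexes. Ankrd1 differed by -0.22 in males and 0.36 in females and Xirp1 by -0.53 and -0.32, with adjusted p-values of at least 0.34, and Csrp3 by 0.22 and 0.18. The test of the difference between the sexes gave an unadjusted p of 0.064 for Ankrd2 and 0.055 for Ankrd23, with an adjusted p of 0.97 for both. Without CLP replicate 1 of the males, whose Ankrd2 value was 7.24, 4 members in place of 1 passed in males (Myot, Myh7b, Ldb3 and Ankrd2). The share of all probes called without this array was not counted.

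**Figure D4:**
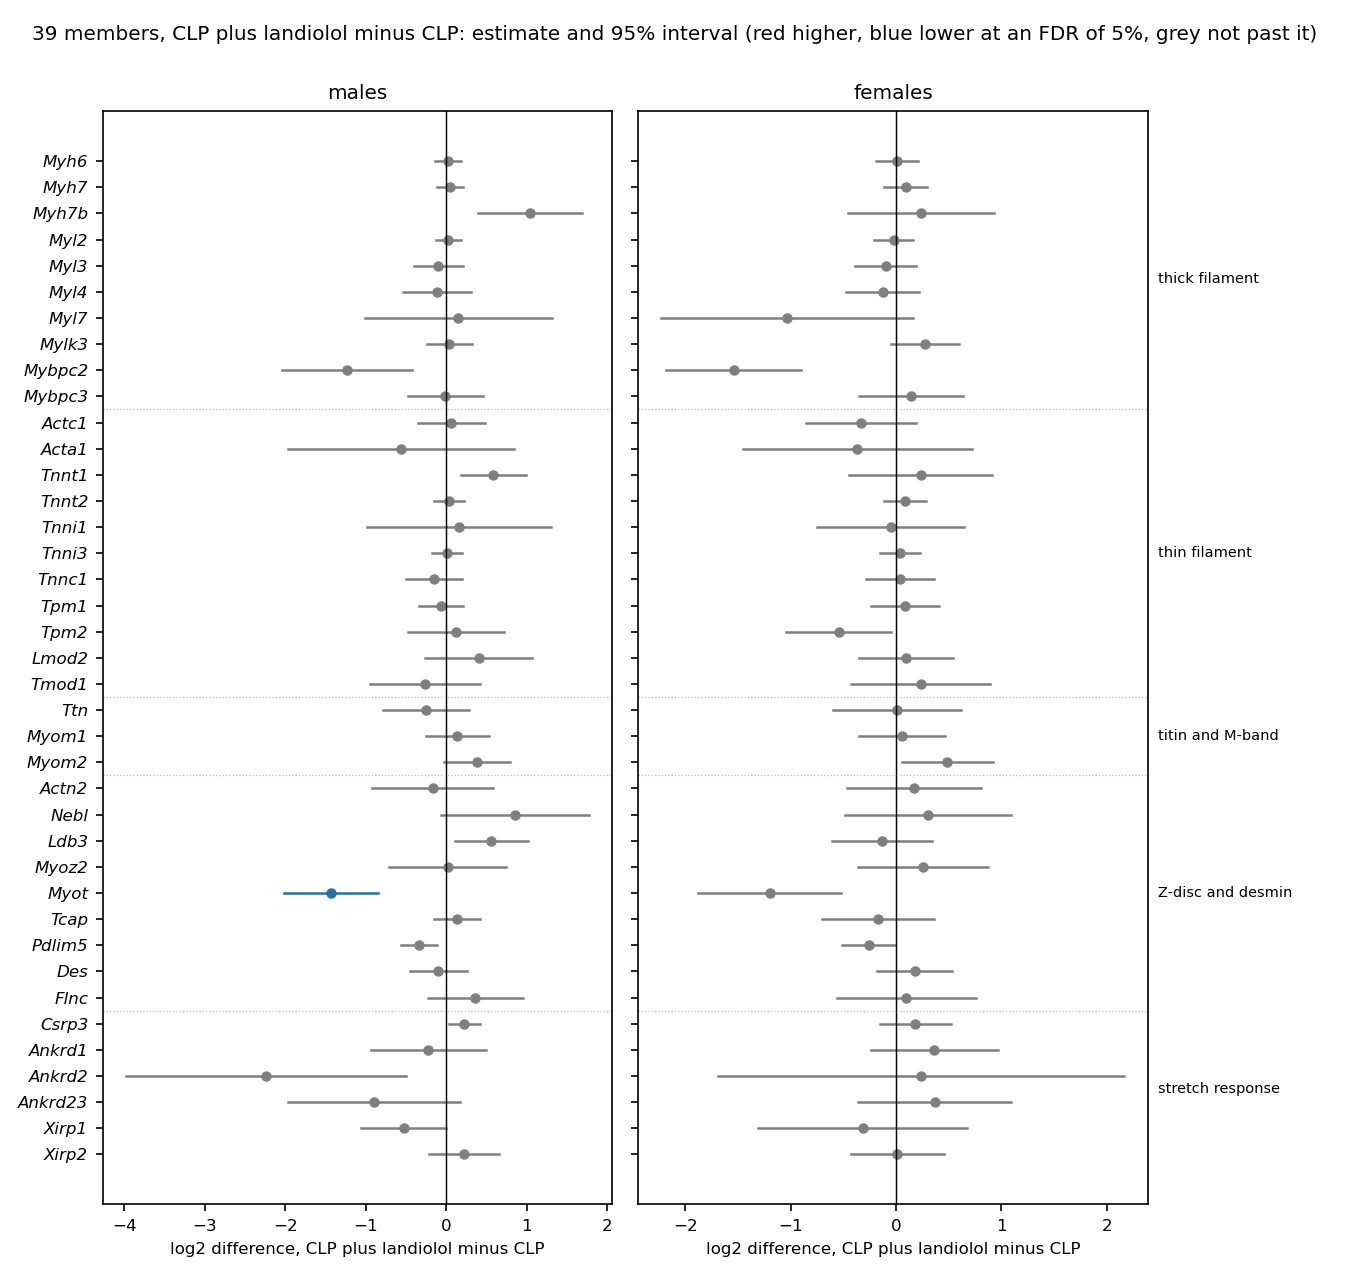
Difference between the CLP plus landiolol and CLP groups for the 39 members (horizontal axis, log2 difference, CLP plus landiolol minus CLP; point, estimate; line, 95% interval; left, males; right, females). Myot in males is the member past the FDR of 5%, and Mybpc2 and Myot lie left of 0 in both sexes.

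Compared with sham, the CLP plus landiolol group had 1 of 39 members higher (Myot) and 0 lower in males, where 2.4% of probes were higher and 1.76% lower at an FDR of 1%. In females 3 of 39 were higher (Myot, Ankrd2 and Ankrd23) and 0 lower, where 3% of probes were higher and 2.24% lower. The limit given above for Ankrd2 in female sham rats holds here too, and its difference ran from 2.87 to 5.35 over the alternative settings. The female rises were 2.21 ± 0.32 for Myot (4.64-fold, adjusted p = 0.00043), 4.71 ± 0.91 for Ankrd2 (adjusted p = 0.0032) and 2.89 ± 0.34 for Ankrd23 (7.44-fold, adjusted p = 9.9e-05). In males Csrp3 ran from 17.03 to 17.41, above all sham values, and differed by 0.33 ± 0.09 without passing (adjusted p = 0.033). Csrp3 and Actc1 lay just outside the threshold in females. Csrp3 ran from 17.51 to 17.94 against 16.61 to 17.25 in sham, a difference of 0.68 ± 0.16 (adjusted p = 0.0104), which was 0.57 with an adjusted p of 0.084 after scaling to the 75th percentile, while its other probe rose by 0.83 (adjusted p = 0.0036). Actc1 ran from 16.90 to 18.40 against 18.44 to 19.04 in sham, a difference of -1.06 ± 0.25 (adjusted p = 0.0105), which was -1.17 with an adjusted p of 0.0041 after scaling to the 75th percentile.

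The place of the female arrays on the slides bears on these values. All 5 female sham arrays were in row 1 of their slides and all 6 female CLP plus landiolol arrays in row 2, while 3 of the 5 female CLP arrays were in row 1. Row and group cannot be told apart between the female sham and CLP plus landiolol groups without the CLP arrays. With row as a term, 0 members passed in females against sham: the differences were 2.31 for Myot (adjusted p = 0.15), 2.87 for Ankrd2 (adjusted p = 0.61) and 3.41 for Ankrd23 (adjusted p = 0.034). In CLP vs sham females, Myot, Mybpc2 and Ankrd23 still passed with row as a term, and Ankrd2 and Pdlim5 did not (adjusted p = 0.061 and 0.021). Male groups were spread over both rows.

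The sexes were set against each other only through their treatment differences, since sex went with slide. Of the 39 members, 31 had the same sign of CLP vs sham in both sexes, and 3 (Myot, Ankrd2 and Pdlim5) passed in both. For Ankrd2 the limit given above for female sham rats applies to this count. The test of the difference between the sexes found 0 of 26492 probes at an FDR of 5%, both for CLP vs sham (0% called) and for CLP plus landiolol vs CLP (0% called). At an unadjusted p under 0.05 there were 2 members (Mybpc2 and Csrp3) in the first, where 3.76% of probes were under 0.05, and 1 member (Ldb3) in the second, where 4.93% were. The male and female calls of Mybpc2, Ankrd23, Xirp1 and Myh7b were therefore not shown to differ.

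Of the 7 genes that passed, 6 had a promoter in the RefSeq table. The 4 with a match to any motif searched are shown so that the match can be read in place, and those of Myh7b and Pdlim5 had no match. Each is the stretch of 250 bases before the RefSeq start in build GRCr8, with motif matches in capitals.
Ankrd2, chr1:250796169-250796418, plus strand: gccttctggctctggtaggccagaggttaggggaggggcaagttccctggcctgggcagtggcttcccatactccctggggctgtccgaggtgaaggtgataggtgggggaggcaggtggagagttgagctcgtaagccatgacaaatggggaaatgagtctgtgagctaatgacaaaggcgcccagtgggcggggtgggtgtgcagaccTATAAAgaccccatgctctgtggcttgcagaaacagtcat
Ankrd23, chr9:46274511-46274760, minus strand: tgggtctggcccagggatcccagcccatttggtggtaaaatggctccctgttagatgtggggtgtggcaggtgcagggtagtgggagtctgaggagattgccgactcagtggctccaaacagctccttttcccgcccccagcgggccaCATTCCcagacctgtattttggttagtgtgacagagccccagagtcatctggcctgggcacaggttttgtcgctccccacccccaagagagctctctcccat
Xirp1, chr8:128635012-128635261, minus strand: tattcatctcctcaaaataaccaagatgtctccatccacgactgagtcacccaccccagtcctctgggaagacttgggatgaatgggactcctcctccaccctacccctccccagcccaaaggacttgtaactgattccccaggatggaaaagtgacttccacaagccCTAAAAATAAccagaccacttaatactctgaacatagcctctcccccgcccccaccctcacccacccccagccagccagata
Mybpc2, chr1:104154102-104154351, minus strand: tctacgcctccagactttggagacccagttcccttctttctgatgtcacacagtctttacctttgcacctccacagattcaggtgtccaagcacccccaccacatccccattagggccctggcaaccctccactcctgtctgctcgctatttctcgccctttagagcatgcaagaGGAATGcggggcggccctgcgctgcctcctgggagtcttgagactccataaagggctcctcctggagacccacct
Searched on both strands were CATTCC, the core of the M-CAT element bound by TEAD factors, TATAAA, the MEF2 site, which can contain TATAAA, and the CArG box bound by serum response factor. The Mybpc2 match is CATTCC read on the other strand. The only match of Ankrd2 is TATAAA, which was about as frequent in the members (12.5%) as in all promoters (12.9%). CATTCC lay in 9 of the 32 members with a promoter in the table and in 12.1% of all 33469 promoters, the MEF2 site in 5 of 32 and 2.96%, the CArG box in 4 of 32 and 1.5%, and TATAAA in 4 of 32 and 12.9%. These are descriptions of letters, not of bound sites. In GRCr8 the Ankrd2 promoter is on the plus strand, opposite to the strand given for its probe on rn4.

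Other genes of the sarcomere and of the load response were tested by the same rule, 85 in males and 84 in females. In CLP vs sham males, 5 (5.88%) were higher and 9 (10.6%) lower, beside 3.88% and 3.94% of all probes. In females 3 (3.57%) were higher and 3 (3.57%) lower, beside 1.82% and 1.82% of all probes. Trim54, which encodes a ubiquitin ligase of the Z-disc and microtubules, rose in both sexes, by 1.13 and 0.83. Actn3, the fast skeletal alpha-actinin, rose by 1.49 in males and 1.86 in females, while of the other isoforms of fast or developing skeletal muscle Tnnt3 fell by 1.22 and Myh8 by 0.45 in males. The Myh8 probe was bright, at a mean of 16.57 in male sham rats. Its match to the transcripts of the cardiac myosins was not checked. The small heat shock protein Hspb1 rose by 0.99 in males, and Fhl1, a LIM protein of the titin spring region, rose by 1.11 in females. Myocardin (Myocd), a coactivator of serum response factor, fell by 2.13 in males and by 2.02 in females. Synpo2l, an actin-binding protein of the Z-disc, fell by 1.64 and by 1.26, and Myoz1, the skeletal calsarcin, by 1.37 and by 0.93. Smyd1, a methyltransferase needed for sarcomere assembly, fell by 1.44 in males. In CLP plus landiolol vs CLP, Synpo2l (0.94) and Ctgf (1.38) were higher in males (2.35% of 85, beside 0.804% of all probes). In males 0 were lower, and 0 of 84 passed in females by limma. An unadjusted limma p under 0.05 was found for 17 in males and 16 in females. Here too the share of all probes under 0.05 was not counted. Against sham, 2 were higher and 3 lower in the CLP plus landiolol group of each sex, with Trim54 higher and Smyd1 and Myocd lower in both. In males these were 2.35% higher and 3.53% lower, beside 2.4% and 1.76% of all probes. In females they were 2.38% higher and 3.57% lower, beside 3% and 2.24% of all probes. The largest rise was that of Mybph, by 2.41 in males.

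Markers of other cells were read beside the members, as the log2 of their summed intensity on each array. The 12 cardiomyocyte markers outside the members were above background on all arrays, and their sum ran from 20.51 to 20.90 over all groups. So high a sum is set by bright probes, for which quantile normalisation leaves little room to differ. The median CLP vs sham difference of these markers was -0.12 in males and -0.17 in females. The sum of 8 fast skeletal muscle markers, Actn3 among them, is given because Mybpc2 and Ankrd2 are best known from skeletal muscle. It ran from 11.90 to 12.39 in male sham and from 11.83 to 12.22 in male CLP rats, and from 12.17 to 12.59 and from 11.85 to 12.40 in females, with Myh1 and Myh2 not above background in any group. The sum of the 6 neutrophil markers ran from 5.44 to 5.86 in male sham rats and from 7.13 to 9.65 in male CLP rats. In females it ran from 5.27 to 6.28 in sham and from 7.46 to 8.83 in CLP, with Ngp and Mmp8 not above background in any group. On sham arrays, 5 of the 6 in males and 4 in females were never above background, so most values in the sham sums were background. Of the 8 macrophage markers 7 were on the array, and their sum ran from 12.90 to 13.49 in male sham and from 13.47 to 14.02 in male CLP rats, and from 12.97 to 13.35 and from 13.25 to 13.66 in females. The sum of the 6 smooth muscle and pericyte markers ran from 13.05 to 14.29 in male sham and from 12.43 to 13.03 in male CLP rats, without overlap, and from 12.65 to 13.49 and from 12.58 to 13.48 in females. In CLP plus landiolol rats the ranges in males and in females were 8.19 to 9.76 and 7.51 to 10.18 for neutrophils, 13.21 to 14.08 and 13.43 to 13.95 for macrophages, 12.89 to 13.82 and 12.36 to 13.11 for smooth muscle and pericytes, and 11.70 to 12.22 and 11.81 to 12.35 for skeletal muscle. The sums for endothelium, fibroblasts, atrial myocytes, adipocytes and red blood cells overlapped between sham and CLP in both sexes. The atrial sum is not separate from the members, since Myl4 and Myl7 are among its 6 markers. In male sham rats the median of Myl4 alone was 17.19, beside 17.26 for the atrial sum. Single markers of these cells still passed in CLP vs sham. In males 4 of 7 fibroblast markers were lower (Col1a1, Col1a2, Col3a1 and Lum) and 1 higher (Tcf21), with a median difference of -1.34. In females 0 of 7 passed, with a median of -0.95. Emcn of the endothelium was lower in both sexes and Kcnj3 of atrial myocytes in males. Also lower were Hrc of cardiomyocytes in males and Rgs5 of smooth muscle and pericytes in females. The part of these cells in the members' changes was not tested. The red blood cell sum of female CLP replicate 4 was 16.75, against 13.51 for the next highest of its group, and without this array Myot, Mybpc2 and Ankrd23 passed in CLP vs sham females and Ankrd2 and Pdlim5 did not.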

How the data were processed

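Left ventricular RNA of 32 rats was hybridised to 1-colour Agilent rat arrays, 1 array per rat, on 4 slides, 2 per sex. The authors deposited the scanner output (Agilent Feature Extraction 10.5), which lists for every spot a background-subtracted intensity, its raw mean and background intensity and quality marks, and a table of log2 values after their own quantile normalisation and filter, used here as an alternative. Depth does not apply to arrays, so precision is set by the number of arrays. The median processed intensity of an array ran from 49.2 to 158, and 0 spots were saturated.

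Intensities were converted to log2, spots of one probe were averaged without those marked as outliers, and quantile normalisation was done separately on the 16 arrays of each sex. A probe was kept where 80% or more of the arrays in any group of that sex were well above background. The 3 groups of a sex were fitted with limma 3.58.1 (lmFit and eBayes, R 4.3.3), with Benjamini-Hochberg adjustment over all kept probes. The difference between the sexes was an interaction on all 32 arrays normalised together. SAM with 100 drawn permutations, other scalings, filters, models and leaving out each array were alternatives. A term for slide row was chosen after seeing the data. Isoform pairs used exact permutation tests, also run in R. The R package data.table (version 1.17.8) read the tables and figures were drawn with matplotlib 3.10.9. Scripts were tested on simulated data.

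Groups came from the labels of sex and treatment. Replicate numbers name arrays and pair nothing. The members and lists were chosen with earlier results of these data known. A member was represented by the probe whose mean over all 32 arrays was highest, and its other probes are mentioned where they go the other way or change a call. The Ttn probe carries that name only in the male annotation and the Tnnc1 probe only in the female one. No genome of build rn4 was used here.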

Additional observations from a re-analysis of the deposited data

Results flagged for a closer look

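Of 234 groups of arrays (39 members, 6 groups), 10 (4.27%) held 1 array set apart, with 6 below and 4 above the others. Set apart means that the gap to the next array was large beside the range of the group, even where both were small. The share is close to the 1 in 20 that chance gives for continuous values, but the brightest members had nearly tied values after quantile normalisation. Myot in male CLP replicate 3 was at 12.97, above its group, and the effect of leaving this array out is given with the landiolol comparison. Actc1 in male sham replicate 1 was at 18.64, Tnnt2 in male sham replicate 4 at 18.36, Tnni3 in female sham replicate 2 at 18.08 and Csrp3 in female sham replicate 1 at 16.61, each below its group. Myh6 in male CLP plus landiolol replicate 3 was at 18.87, with the next array at 18.95, and Myh7 in female CLP replicate 3 at 18.26, also below. Tpm2 in male CLP plus landiolol replicate 5 was at 11.71, Myh6 in female CLP replicate 5 at 19.14 and Ldb3 in female CLP replicate 4 at 14.12, each above its group.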

How the results depend on the processing

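Over 15 member results that passed, 375 of 435 alternative values kept direction and call, 60 kept the direction and lost the call, and 0 changed sign. Myot in CLP vs sham of both sexes and in CLP plus landiolol vs sham of males, Myh7b in males, and Mybpc2 and Ankrd23 in CLP vs sham females kept their call under all 29 alternatives run for each. Xirp1 lost it in 12 of 29, and Pdlim5 in 9 of 29 in males and 7 of 29 in females. The number of members called in CLP vs sham males (5) became 3 without the filter on dim probes, 3 with only the groups compared in the fit and 8 at an FDR of 5%, and 2 to 6 when 1 array was left out. It was 2 without sham replicate 1 or 3 or CLP replicate 3 or 4 (Myh7b and Myot) and 3 without sham or CLP replicate 5. In CLP vs sham females (5) it was 3 with slide row added to the fit and 3 to 5 with 1 array left out, with 3 (Mybpc2, Myot and Ankrd23) without sham replicate 1, 3 or 5 or CLP replicate 4. In CLP plus landiolol vs CLP males (1) it was 2 with the mean over all probes of a gene, 3 by SAM, 0 at an FDR of 1%, and 0 to 4 with 1 array left out, with 0 without CLP replicate 3 and 4 without CLP replicate 1. In females (0) it was 1 (Mybpc2) after normexp background correction and 1 (Mybpc2) by SAM, and 0 with any array left out. Against sham, the CLP plus landiolol males (1) gave 2 with a trended prior and 2 at an FDR of 5% (Myot and Csrp3), and 1 with any array left out. The females (3) gave 5 with the filter on all arrays, 5 with a trended prior and 5 by SAM (with Csrp3 and Actc1 added), 6 at an FDR of 5%, 0 with slide row added to the fit, and 3 to 4 with 1 array left out. Sex differences and isoform pairs gave 0 under every alternative run. Shares of all probes called were not counted under the alternatives, so a change in these member counts cannot be set against a change over all probes. The causes were not tested. No paired analysis was possible because the replicate numbers are given in order of the samples and pair no arrays across groups.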
